A study of Mus musculus with 3 samples.

Results

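Accessible chromatin at the 3' ends of genes was described in Müller cells, the radial glia that span the vertebrate retina. DNase-seq, an assay of where DNase I cleaves open chromatin, had been carried out on primary Müller cells of postnatal B6NCrl mice, a C57BL/6N strain, at 12 days of age, with males and females pooled and no treatment named. The series held 1 group of 3 biological replicates. All carried the same donor label, with a separate biosample label each, so the spread between them may in part be technical. The 3' end sites were chosen by position alone. Peaks of the 3 replicates were merged where they shared at least 1 bp, and a merged region was kept if it held a peak of every replicate. Its centre also had to lie within 1 kb of the annotated 3' end of a protein-coding gene, over 1 kb from every protein-coding transcription start site, and outside coding sequence. Of 351961 merged regions on the autosomes and the X chromosome, 145262 (41.3%) held a peak of every replicate, and 2093 of those (1.44%) were 3' end sites. The other reproducible regions comprised 114448 other distal sites, over 1 kb from start sites and from 3' ends and outside coding sequence, 27124 sites within 1 kb of a protein-coding start, and 1597 sites in coding sequence.

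The 3' end of a gene is where the transcript is cleaved and polyadenylated, and RNA polymerase II runs on for some distance beyond it before it is released. A DNase-accessible site there can be an enhancer, a promoter of an unannotated or noncoding transcript, or a place where the insulator protein CTCF is bound. CTCF is a zinc-finger protein that, with cohesin, anchors chromatin loops, and the direction of its asymmetric motif is known to set which way a loop is anchored. AP-1, a dimer of FOS and JUN proteins, binds enhancers in many cell types and is induced by growth factors and stress.

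Each peak was a 150 bp interval with a deposited score, a whole number between 1 and 150 whose meaning the sources used here do not state, and a higher score was taken as a stronger peak of its replicate. Means of the 3 scores served only to order sites that are named. The replicates differed in how much was called. Replicate 1 had 300269 peaks, replicate 2 had 281185 and replicate 3 had 184544, and the sequencing depth behind them is unknown. All 12 Müller cell markers, among them Rlbp1, Glul and Aqp4, had a promoter peak in every replicate. Of 12 markers of microglia and macrophages, 12 had one in replicates 1 and 2, but 3 in replicate 3, and 3 of 8 rod markers had one in each replicate. The part of other cell types in the 3' end sites was not tested.

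The strongest sites that held a CTCF match and those that held an AP-1 match are shown first, since these motifs differed in opposite directions between 3' end sites and other distal sites. Each sequence is read 5' to 3' from the mm10 genome on the strand given, and capitals mark the match. The 5 CTCF sites had the highest mean score among sites with a match to the 12-letter CTCF core consensus.
Csrp1, chr1:135753081-135753110, minus strand: cctgcatggCCAGCAGAGGGCagcctgtct
Copz2, chr11:96862090-96862119, minus strand: cccgtagtaCCTCCAGGTGGCgctctagga
Frmd8, chr19:5850355-5850384, minus strand: cagctgtgaCCAGCAGGGGGCagctgagcc
Stac3, chr10:127509123-127509152, plus strand: ccaacttggCCACCAGGGGGCgatgcaaga
Eef1b2, chr1:63181264-63181293, plus strand: ccatgagagCCAGCAGAGGGCagcacttgg
The windows at Csrp1, which encodes a LIM-domain protein, Copz2, a coatomer subunit, Stac3, a protein of excitation-contraction coupling in muscle, and Eef1b2, a translation elongation factor, lay 878, 897, 347 and 754 bp downstream of their genes' 3' ends, counted to the site centre. The Frmd8 window lay 608 bp upstream, in the 3' UTR. The match ran on the strand of the gene at Frmd8, Stac3 and Eef1b2, and on the opposite strand at Csrp1 and Copz2.

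The 5 AP-1 sites with the highest mean score carried the palindrome TGANTCA.
Kcnn4, chr7:24387413-24387441, plus strand: cctgccccaagTGAGTCAgagaccagtgg
Ccdc97, chr7:25711977-25712005, plus strand: tctgtgtgtgaTGACTCAagacccatgat
H6pd, chr4:149979895-149979923, plus strand: aggctgggcagTGACTCAccgttattcag
Btd, chr14:31669319-31669347, plus strand: ccagcccgggtTGACTCAtcgcttgcaaa
Bax, chr7:45460970-45460998, plus strand: gccagttctgcTGAGTCAcgctgagctca
Kcnn4 encodes a calcium-activated potassium channel, H6pd a hexose-6-phosphate dehydrogenase of the endoplasmic reticulum, Btd biotinidase and Bax a pro-apoptotic protein. The sites shown at Kcnn4, Btd and Bax lay 770, 781 and 657 bp downstream of the 3' end, outside annotated genes. Those at Ccdc97 and H6pd lay 834 and 475 bp upstream, in the 3' UTR.

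Of the sites outside annotated UTRs, 4 are shown whole, with AP-1 and CTCF matches in capitals. Sec14l2 had the strongest of all 3' end sites and held neither match. Kcnn4 held a pair of AP-1 matches, and Eef1b2 a pair of identical CTCF matches. Copz2 held 1 CTCF match, seen here in reverse.
Sec14l2, chr11:4096676-4096825, minus strand: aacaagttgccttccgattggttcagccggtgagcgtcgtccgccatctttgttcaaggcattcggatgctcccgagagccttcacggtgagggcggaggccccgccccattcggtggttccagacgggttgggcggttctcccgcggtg
Kcnn4, chr7:24387376-24387545, plus strand: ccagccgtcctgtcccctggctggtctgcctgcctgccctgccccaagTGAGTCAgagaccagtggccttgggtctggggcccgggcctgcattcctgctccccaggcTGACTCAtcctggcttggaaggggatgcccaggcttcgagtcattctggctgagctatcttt
Eef1b2, chr1:63181156-63181325, plus strand: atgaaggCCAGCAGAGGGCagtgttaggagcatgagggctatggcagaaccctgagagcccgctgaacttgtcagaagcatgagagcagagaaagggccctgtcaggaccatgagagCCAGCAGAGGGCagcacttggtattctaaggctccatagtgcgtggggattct
Copz2, chr11:96862016-96862185, plus strand: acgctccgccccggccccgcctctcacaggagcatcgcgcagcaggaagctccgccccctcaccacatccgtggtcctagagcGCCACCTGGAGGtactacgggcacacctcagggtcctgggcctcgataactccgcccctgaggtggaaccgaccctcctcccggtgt

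The 10 strongest sites, by the poorer of their ranks in the 3 replicates, lay at Sec14l2, Sertad1, Kcnn4, Ctdsp1, Gm9821, Ccdc97, Scarb1, Six3, Slc39a13 and Slc11a1. The Sec14l2 site scored 146, 142 and 146 in replicates 1, 2 and 3, which placed it at ranks 605, 1325 and 46 among the 145262 reproducible sites. Sec14l2 encodes a lipid-binding protein. Its site was centred 289 bp beyond the gene and 1305 bp from the nearest protein-coding start, that of Mtfp1. The Sertad1 site, 394 bp downstream of a gene for a transcriptional coregulator, scored 144, 143 and 143. The strongest of 3 Ctdsp1 sites, 185 bp downstream of a gene for a phosphatase of RNA polymerase II, scored 145, 138 and 139. The Six3 site lay in the 3' UTR of Six3, a homeobox gene of eye development, 312 bp before its end, and scored 146, 137 and 139. Scarb1, the receptor for high-density lipoprotein, had its site 117 bp downstream with scores of 143, 140 and 131. Slc39a13, a zinc transporter gene, had its site in the 3' UTR with scores of 147, 140 and 130. The Slc11a1 site was at 998 bp, just inside the limit of 1 kb, and scored 140, 140 and 139. At the other extreme, the weakest sites, at Ttll4, Ubtfl1 and Vegfc, scored 21, 19 and 19, then 25, 22 and 12, then 32, 16 and 12. Both sets were picked by these scores, so their agreement between replicates is no sign of stability.

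Over all 2093 sites, the median score was 79 in replicate 1, 65 in replicate 2 and 49 in replicate 3, against 76, 62 and 43 at other distal sites. The difference averaged 4 ± 1.73 score units (SD, n = 3 replicates), and was 3, 3 and 6. An exact two-sided sign-flip permutation test gave p = 0.25, the smallest value that 3 replicates allow, so no comparison here can pass 0.05. The direction did not hold among strong peaks. With only the strongest 50% of each replicate's peaks, the mean difference was -2.33 ± 3.79 (SD, n = 3; exact sign-flip permutation p = 0.5). Those peaks were selected by the same score that is compared. At the weak end the 10th percentile was 45, 34 and 25 at 3' end sites, against 41, 31 and 21 at other distal sites. At the strong end the 90th percentile was 119.8, 111 and 95 at 3' end sites and 121, 112 and 89 at other distal sites, so the order differed between replicates. The share of sites inside a hotspot, a broader enriched stretch, whose -log10 q reached its deposited cap of 100 was 84.3%, 77.9% and 52.6%, against 82.4%, 76.0% and 49.9% at other distal sites. That is a difference of 2.18 ± 0.45 percentage points (SD, n = 3; exact sign-flip permutation p = 0.25).

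**Figure D1:**
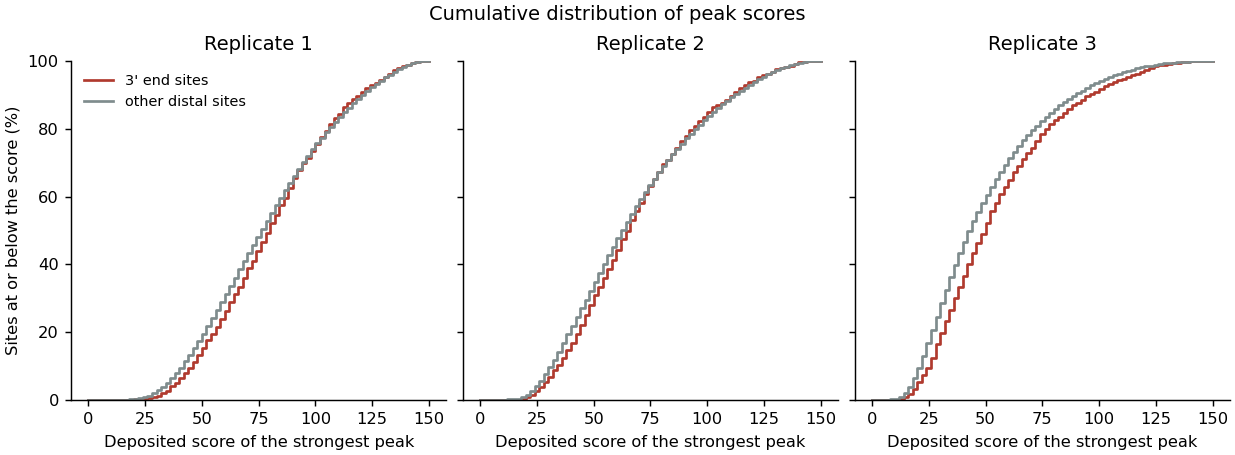
Cumulative percent of 3' end sites (red) and other distal sites (grey) at or below each deposited peak score, in 1 panel per replicate. The red curve lies right of the grey one at low scores in every panel, with medians of 79, 65 and 49 against 76, 62 and 43, and the curves meet or cross at high scores in replicates 1 and 2.

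The sites recurred between replicates about as often as other distal sites. Of 5225 merged regions at 3' ends, 40.1% had a peak in all 3 replicates, against 39.4% of other distal regions. Another 1320 (25.3%) had a peak in replicates 1 and 2 only, against 26.9% of other distal regions. Across the 2093 sites, Spearman's rho of the score was 0.948 for the pair of replicates 1 and 2. It was 0.728 for replicates 1 and 3, and 0.743 for replicates 2 and 3. At other distal sites the same pairs had 0.955, 0.760 and 0.775. Sites are not independent replicates, and these correlations describe them only. Counted alone, the replicates had 4289, 4070 and 2654 regions that met the position rule, a mean of 3671 ± 888 (SD, n = 3). Without replicate 3, 3429 sites were shared by the other two replicates.

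Sites were slightly denser near 3' ends than elsewhere, but not concentrated at the 3' end itself. Density was counted as region centres per Mb of genome that met the same exclusions, which came to 34.9 Mb within 1 kb of a 3' end and 2401.5 Mb elsewhere. Reproducible sites numbered 60.005 per Mb near 3' ends and 47.7 per Mb elsewhere, a ratio of 1.26. Each replicate's own regions gave 123.0, 116.7 and 76.1 per Mb near 3' ends and 101.4, 94.4 and 58.1 per Mb elsewhere, so the ratios were 1.21, 1.24 and 1.31 (exact sign-flip permutation p = 0.25 on the log2 ratios). Along the gene, reproducible sites were at 51.3 per Mb in the stretch 5 to 1 kb upstream of the 3' end and 54.4 per Mb in the last 1 kb. They were at 64.8 per Mb in the first 1 kb downstream and 64.6 per Mb 1 to 5 kb downstream. The replicates' own densities in the first 1 kb downstream differed from those 1 to 5 kb downstream by 0.26 ± 0.45 per Mb (SD, n = 3; exact sign-flip permutation p = 0.5). In the last 1 kb of the gene they exceeded those 5 to 1 kb upstream by 5.55 ± 2.01 per Mb, in 3 of 3 replicates (exact sign-flip permutation p = 0.25).

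The 250 bp just before the 3' end held fewer sites than the bins on either side of it. Reproducible sites were at 45.4 per Mb there, against 59.0 per Mb in the 250 bp before it and 61.9 per Mb in the 250 bp after the 3' end. Each replicate had the same order, with 98.0, 87.8 and 60.8 own regions per Mb in that bin against 124.5, 118.7 and 75.6 per Mb just beyond the 3' end. Some bins deeper in the gene were about as low, for example 45.3 per Mb at 3750 to 3500 bp upstream and 46.9 per Mb at 3250 to 3000 bp upstream. At the outer limit of the window, the bin 750 to 1000 bp downstream held 292 sites with median scores of 78, 64 and 49.5. The bin just outside it, 1000 to 1250 bp downstream, held 271 sites with medians of 82, 67 and 48.

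**Figure D2:**
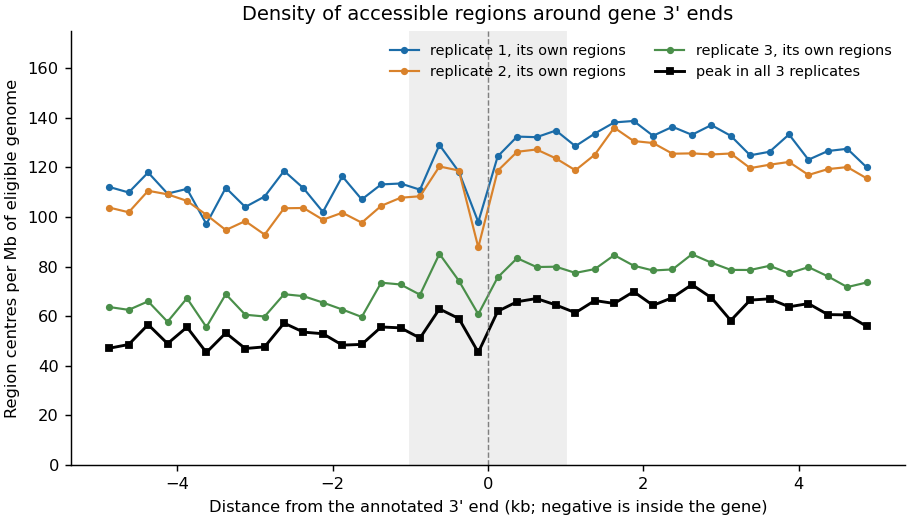
Region centres per Mb of eligible genome in 250 bp bins from 5 kb inside to 5 kb beyond the annotated 3' end, for each replicate's own regions (coloured) and for regions with a peak in all 3 replicates (black); grey shading marks the 1 kb window. Density of reproducible sites is 45.4 per Mb in the last bin of the gene, about the level of some bins deeper in the gene, and lies at 61.9 to 67.1 per Mb in the first 1 kb downstream, with no maximum at the 3' end.

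The ratio of the densities varied with the distance to start sites, and the cause of the higher density was not tested. The median distance to the nearest protein-coding start was 5786 bp at 3' end sites and 32888 bp at other distal sites. Strata of that distance, chosen after the data had been seen, gave ratios of reproducible density near 3' ends over elsewhere of 0.86 at 1 to 2.5 kb from a start, 1.07 at 2.5 to 5 kb, 1.05 at 5 to 10 kb, 1.00 at 10 to 20 kb and 0.92 at 20 to 50 kb. Over 50 kb from any start the ratio was 1.57, with 58.8 per Mb near 3' ends and 37.4 per Mb elsewhere, and 111 of the 2093 sites lay there. The replicates' own ratios in that last stratum were 1.41, 1.51 and 1.57, and they lay under 1 in all 3 replicates at 1 to 2.5 kb and at 20 to 50 kb.

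Downstream and upstream sites differed in number and motif content. Downstream of the nearest 3' end lay 1214 sites (58.0%), at 64.9 per Mb, on 53.6% of the eligible genome, and upstream lay 879, at 54.3 per Mb. By the annotation at the site centre, 776 sites (37.1%) fell in a 3' UTR, 68 in another exon, 229 in an intron of a protein-coding gene, 57 in another gene outside its exons and 963 (46.0%) outside all genes. Their densities were 57.5, 106, 51.5, 70.9 and 62.1 per Mb in that order. Sites in a 3' UTR had median scores of 76.5, 64 and 49, and those outside genes 81, 66 and 50. A noncoding transcript started within 1 kb of 106 sites, and those had medians of 81.5, 67.5 and 50.5.

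Within 1 kb of 3' ends on both strands, where genes converge, there were 112 sites at 78.6 per Mb, against 59.2 per Mb where ends of only 1 strand were near. Such a site can lie inside either gene or between them. The strongest was near the ends of Tnfrsf12a, the receptor for the cytokine TWEAK, and Hcfc1r1, outside both, with scores of 134, 129 and 129 and an AP-1 match in every replicate. Next came 1700008O03Rik and Shank1, a synaptic scaffold gene, at 135, 122 and 127. The site of Ppt1, a lysosomal thioesterase gene, and Cap1, an actin regulator, scored 135, 128 and 114. Those of Mov10, an RNA helicase gene, with Rhoc, a small GTPase, and of Pdrg1 with Ttll9 scored 131, 118 and 127, then 128, 128 and 115. Median scores over the 112 sites were 79, 63.5 and 55, against 79, 65 and 49 over the others. A single site, beyond Diaph1 at chr18:37842716-37842865, lay within 1 kb of 22 genes' ends, because the gamma-protocadherin genes share a last exon. It scored 111, 90 and 72.

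CTCF matches were 2.35 times as common at 3' end sites as at other distal sites. The share of sites whose strongest peak held a match was 10.6%, 10.7% and 10.1% in replicates 1, 2 and 3, a mean of 10.4 ± 0.28%, against 4.49%, 4.50% and 4.37% at other distal sites, a mean of 4.45 ± 0.07% (SD, n = 3). The difference was 5.99 ± 0.21 percentage points (exact sign-flip permutation p = 0.25, adjusted over 21 motifs 0.25). The replicates read nearly the same bases at each site, so this spread does not measure the sampling of sites. The difference was not restricted to the 1 kb window: distal sites 1 to 5 kb from a 3' end, chosen as a comparison after the data had been seen, had 9.82%, 9.83% and 9.20%. Against those 6987 neighbouring sites the difference was 0.83 ± 0.09 percentage points, higher in 3 of 3 replicates (exact sign-flip permutation p = 0.25). That excess lay downstream, where the first 1 kb exceeded 1 to 5 kb by 2.00 ± 0.13 (SD, n = 3; exact sign-flip permutation p = 0.25). The last 1 kb upstream differed from 5 to 1 kb upstream by -0.77 ± 0.39, lower in 3 of 3 replicates (exact sign-flip permutation p = 0.25). Within strata of distance to a start site the difference stayed positive, from 1.69 percentage points at 20 to 50 kb to 7.11 at 10 to 20 kb. It also stayed positive within strata of GC content, with ratios of 2.12 below 45% GC, 2.54 at 45 to 55% and 1.57 at 55% or more.

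**Figure D3:**
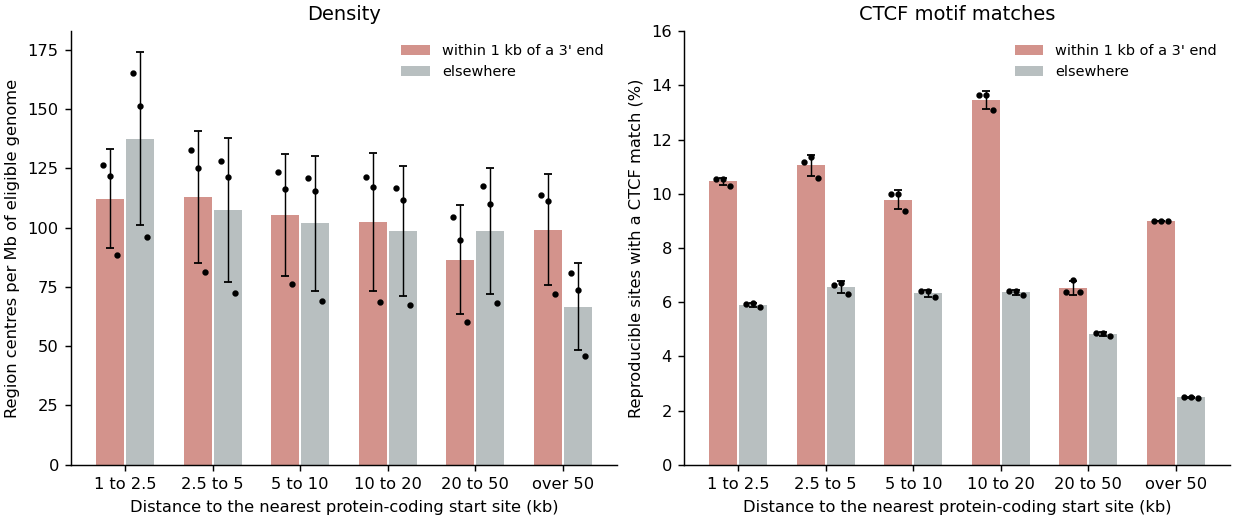
Region density (left, each replicate's own regions per Mb) and percent of reproducible sites with a CTCF match (right) within 1 kb of a 3' end (red) and elsewhere (grey), by distance to the nearest protein-coding start site; bars are means of the 3 replicates (points), error bars SD. Density near 3' ends exceeds that elsewhere clearly only over 50 kb from a start, whereas CTCF matches are more frequent near 3' ends in every stratum, for example 13.5% against 6.36% at 10 to 20 kb.

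Orientation was read from the whole merged site. Of 228 sites with a CTCF match, 130 had it on the strand of the gene, 96 on the opposite strand and 2 on both. Downstream of the 3' end the match shared the gene's strand at 90 sites and opposed it at 54, whereas upstream the counts were 40 and 42. Further out, the gene's strand held 239 matches and the opposite strand 168 at 1 to 5 kb downstream, and 129 and 168 at 5 to 1 kb upstream. As a share of sites with a match on 1 strand, the gene's strand held 43.4%, 48.8%, 62.5% and 58.7% from the farthest upstream to the farthest downstream stretch. No test was made over sites. Sites with a CTCF match in every replicate, 207 in all, scored medians of 79, 62 and 46, against 79, 65 and 50 for the 1866 with no match in any. With the match read in each replicate's own strongest peak, medians were 79, 63 and 46 with a match and 79, 65 and 50 without. That difference was -2 ± 2 (SD, n = 3; exact sign-flip permutation p = 0.5). CTCF matches were at 11.4% of downstream and 9.10% of upstream sites. By annotation they were at 8.63% of sites in a 3' UTR and 6.37% of those in another exon. In introns of protein-coding genes the share was 12.5%, and outside all genes 11.4%. It was 15.2% in introns or other unexonic parts of genes that do not code for protein, a class of only 57 sites.

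AP-1 matches went the other way. They were in 17.7%, 17.7% and 15.6% of 3' end sites, a mean of 17.0 ± 1.23%, against 22.3%, 22.2% and 20.3% of other distal sites, a mean of 21.6 ± 1.14% (SD, n = 3). The difference was -4.59 ± 0.10 percentage points (exact sign-flip permutation p = 0.25, adjusted 0.25). Sites 1 to 5 kb from a 3' end were intermediate, at 18.6 ± 1.05%, and the difference from them was -1.59 ± 0.20. By side, it was -3.54 ± 0.12 for the first 1 kb downstream against 1 to 5 kb downstream. It was 1.11 ± 0.45 for the last 1 kb upstream against 5 to 1 kb upstream (exact sign-flip permutation p = 0.25 for each side). As for CTCF, the replicates read nearly the same bases, so these spreads do not measure the sampling of sites. The order was not the same in every stratum of GC content. Below 45% GC, AP-1 matches were in 26.2% of 3' end sites and 24.6% of other distal sites, a ratio of 1.06. At 45 to 55% GC they were in 17.6% and 22.1%, and at 55% or more in 11.1% and 14.5%. Whether the small reversal below 45% GC exceeds the sampling of sites was not tested. Within the window, 15.5% of downstream sites and 19.0% of upstream sites held a match. AP-1 and CTCF matches seldom met. Of the 301 sites with AP-1 in every replicate, 1.99% had a CTCF match in each, against 12.2 ± 0.39% of the 1696 sites with no AP-1 match.

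The 3' end sites were richer in G and C. GC content averaged 51.6%, 51.8% and 52.4% in the 3 replicates, against 48.1%, 48.3% and 48.9% at other distal sites, a difference of 3.48 ± 0.02 percentage points (SD, n = 3; exact sign-flip permutation p = 0.25). Neighbouring sites at 1 to 5 kb had 51.3 ± 0.37%, 0.58 ± 0.03 below the 3' end sites. Peaks rich in CpG, defined after the data had been seen as at least 50% GC with a CpG content at least 0.6 of that expected from the base composition, made up 6.69 ± 0.05% of 3' end sites and 3.45 ± 0.04% of other distal sites. SP and KLF factors bind GC boxes, and the letters GGGCGG were found in 9.46 ± 0.70% of 3' end sites and 4.98 ± 0.48% of other distal sites. Within GC strata those shares were 4.47% against 3.71% at 45 to 55% GC and 21.1% against 16.3% at 55% or more. Below 45% GC they were 0.91% against 0.83%, with an order that differed between replicates. The AT-rich LIM homeobox core TAATTA was at 3.74 ± 0.26% of 3' end sites and 6.94 ± 0.39% of other distal sites, and it was also lower within each GC stratum. The E-box CAGCTG, read by proneural and other bHLH factors, was at 15.3 ± 0.19% and 13.2 ± 0.15%. The polyadenylation signal AATAAA was at 9.13 ± 0.50% of 3' end sites and 10.5 ± 0.28% of other distal sites, either strand counted.

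Of the 21 motifs searched, on both strands, 10 were more frequent at 3' end sites in every replicate and 11 less frequent. Every adjusted p was 0.25. The replicates read nearly the same bases at each site, so their agreement was to be foreseen. Neither it nor the SDs of the motif and GC shares measure the sampling of sites. The RBPJ core CGTGGGAA, read by the effector of Notch signalling, was at 0.61 ± 0.06% of 3' end sites and 0.37 ± 0.005% of other distal sites. The ETS consensus CCGGAAGT was at 0.30 ± 0.03% and 0.20 ± 0.01%, and the palindromic NFI consensus at 0.02 ± 0.03% and 0.09 ± 0.002%. Such rare motifs rest on few of the 2093 sites. A match is a description of letters and not evidence of binding.

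**Figure D4:**
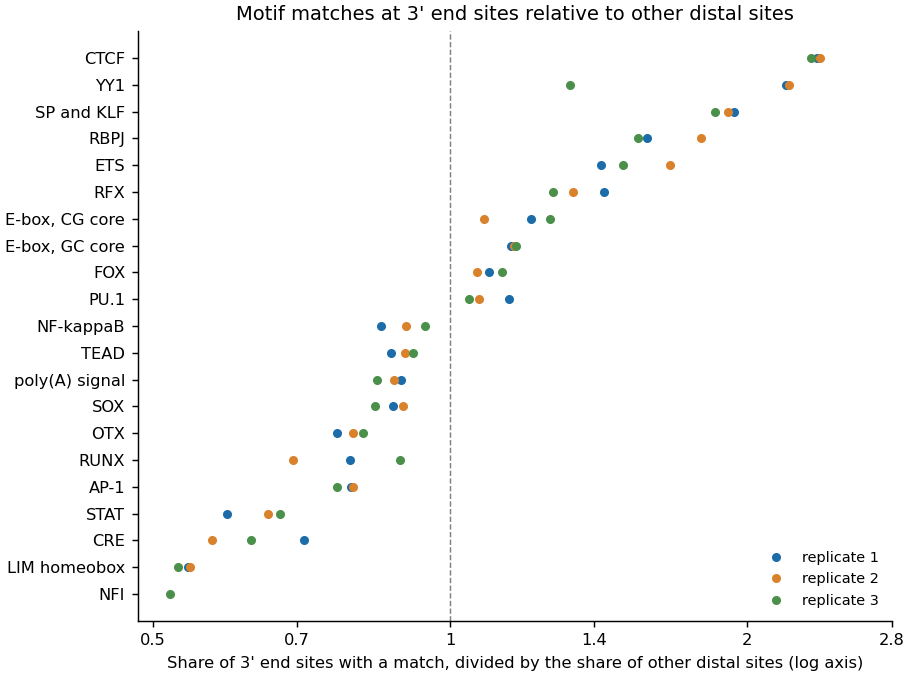
Share of 3' end sites with a match divided by the share of other distal sites with one, for 21 motifs, on a log axis; each point is 1 replicate. CTCF stands highest at 2.35 on average; AP-1 is at 0.79 and the LIM homeobox core at 0.54. The NFI consensus had no match at 3' end sites in replicates 1 and 2, so 1 point is drawn.

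At the level of genes, 1994 of 21755 protein-coding genes (9.17%) had at least 1 reproducible site within 1 kb of the 3' end. Of these, 1775 had 1 site, 195 had 2, 23 had 3 and Spats2l had 4. By each replicate's own regions the share of genes was 16.9%, 16.3% and 10.7%, a mean of 14.6 ± 3.40% (SD, n = 3). Genes with an accessible promoter, defined as a reproducible region within 1 kb of a start, had a 3' end site in 1621 of 14801 cases (10.95%), and those without in 373 of 6954 (5.36%). The replicates' own regions gave 19.4%, 18.8% and 12.7% for open promoters and 9.67%, 9.56% and 5.88% for the rest, a difference of 8.62 ± 1.57 percentage points (exact sign-flip permutation p = 0.25). Among open-promoter genes, gene length moved the share little, from 10.6% in genes over 50 kb to 13.1% in genes up to 2.5 kb.

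Among the genes with several sites, Gadd45g, a stress-inducible gene, had sites at -248, 562 and 942 bp from its 3' end, negative meaning inside the gene. The site at 942 bp scored 119, 120 and 103, that at 562 bp 113, 105 and 76, and that at -248 bp 98, 83 and 95. Ier5l, a relative of the immediate early gene Ier5, had its strongest site at 777 bp with 125, 118 and 116. Copz2 had 3 sites, 2 of them with CTCF matches in every replicate, at 897 bp with scores of 126, 115 and 126 and at -463 bp with 106, 97 and 87. Lag3, an inhibitory receptor of lymphocytes, had sites at 141 bp (128, 110 and 100), 541 bp (112, 102 and 106) and -349 bp (70, 59 and 51). The 4 sites of Spats2l were weaker, with scores from 62 to 89 in replicate 1 at 3 of them and 31 at the other. Ank2, an ankyrin gene, Ccdc97, Ctdsp1, Kif26a, a kinesin gene, and Lmod1, a leiomodin gene, also had 3 each.

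Immediate early genes, whose transcription rises within minutes of a stimulus, most often had a 3' end site among the 9 gene lists examined, at 13 of 24 (54.2%). All 24 had an open promoter. The 13 were Fos, Fosb, Jun, Junb, Jund, Egr1, Egr4, Nr4a1, Ier2, Klf6, Btg2, Zfp36 and Dusp1. By own regions, 20, 17 and 14 of the 24 genes had a site in replicates 1, 2 and 3 (83.3%, 70.8% and 58.3%), against 16.9%, 16.3% and 10.7% over all genes. The list is of short genes, with a median length of 5368 bp against 17414 bp over all genes. Of its 10 genes up to 5 kb, 8 had a site, and of all 1684 open-promoter genes of that length, 205 did (12.2%). Ier2, which encodes a nuclear regulator, had a pair of sites. The stronger lay in the 3' UTR, 369 bp before the end and 1152 bp from its start, with scores of 130, 130 and 121 and an AP-1 match in every replicate, and the other, at 21 bp, scored 54, 45 and 61. Egr1, a zinc-finger factor gene, had its site at 836 bp with 135, 126 and 112. Klf6, a zinc-finger factor gene, had sites at 96 bp (133, 129 and 106) and -344 bp (89, 82 and 51). The Jund site, at 84 bp, scored 111, 104 and 92. Fos, the AP-1 subunit gene, had a pair of sites, at 137 bp (106, 93 and 51) and 697 bp (101, 89 and 80). These genes were named for their strong sites. Other sites of the list were weaker, such as that of Fosb, at 556 bp with 53, 43 and 42, and the second site of Egr4, at 461 bp with 72, 49 and 27.

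Genes of retinal progenitors came next by reproducible sites, and those of Müller glia and the Notch pathway shared the third place. The share over all genes was 9.17%, and by own regions 16.9%, 16.3% and 10.7%. Over open-promoter genes it was 10.95%, and by own regions 19.4%, 18.8% and 12.7%. An open promoter was present at all 32 Müller glia genes and at 18 of the 20 progenitor genes. Of 20 progenitor genes, 8 had a site (40%), among them Rax, Six3, Six6, Sox2, Hes1, Ccnd1 and Meis1, and 9, 9 and 8 genes had one by the replicates' own regions (45%, 45% and 40%). Six6, a homeobox gene of the optic field, had 3 sites, of which the one at 671 bp scored 102, 89 and 92. Ccnd1, which encodes cyclin D1, had a site at 241 bp with 108, 92 and 76. It lay beyond the end of Ccnd1 but in an annotated 3' UTR of another gene. Of 32 Müller glia genes, 8 had a site (25%), among them Sox2, Aqp4, Hes1, Clu, Id1, Id3 and Dbi. By own regions 12, 16 and 11 did (37.5%, 50% and 34.4%). Aqp4, the glial water channel, had its site at 896 bp with 127, 109 and 69. Sox2, a factor that keeps progenitor and glial fate, had 3 sites, and that at 459 bp scored 105, 98 and 62. Hes1, a Notch target, had a site at 404 bp with 89, 79 and 78, and Id3, an inhibitor of bHLH factors, one at 565 bp with 94, 91 and 45. Sox2 and Hes1 counted in both lists, and Hes1 also in the Notch list.

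Notch pathway genes had a site in 5 of 20 cases (25%) and gliosis and stress genes in 6 of the 25 found (24.0%). By own regions these were 7, 5 and 6 Notch genes (35%, 25% and 30%) and 8, 10 and 5 gliosis and stress genes (32.0%, 40% and 20%). All 20 Notch genes and 22 of the 25 gliosis and stress genes had an open promoter. Open-promoter genes in general had a site in 10.95% of cases, and by own regions in 19.4%, 18.8% and 12.7%. The receptor gene Notch1 had its site 637 bp inside the 3' end with 86, 56 and 89, the ligand gene Jag1 at 716 bp with 63, 42 and 35, and the target gene Heyl in its 3' UTR with 105, 99 and 75. Ccn1, which encodes a matricellular protein, had a site at 636 bp with 115, 99 and 108, and Lif, a cytokine that glia release on injury, one in the 3' UTR with 109, 97 and 66. The site of Gfap, the intermediate filament gene of reactive glia, lay 884 bp inside the 3' end and scored 101, 80 and 51. Ccn2 had one at 987 bp with 78, 60 and 38.

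The remaining lists stood near or below the 9.17% over all genes by reproducible sites, but not by each replicate's own regions. YAP and TEAD pathway genes had a site in 2 of 18 (11.1%), with Vgll4 at 113, 85 and 63 and Ankrd1 at 66, 37 and 43. Microglia and macrophage genes, whose promoter peaks differed between replicates as given above, had one in 2 of 19 (10.5%). One was Cd68, at 119, 123 and 76, whose site lay 1378 bp from the start of Mpdu1, and the other Fcer1g, at 61, 43 and 28. Housekeeping genes had one in 1 of 20 (5%), B2m, at 81, 53 and 23, and rod and cone genes in 1 of 24 (4.17%), Pde6h, at 52, 45 and 28. By own regions in replicates 1, 2 and 3, housekeeping genes had a site in 7, 6 and 3 cases (35%, 30% and 15%), above the 16.9%, 16.3% and 10.7% over all genes in each. Microglia and macrophage genes did in 6, 5 and 3 (31.6%, 26.3% and 15.8%) and YAP and TEAD genes in 4, 5 and 2 (22.2%, 27.8% and 11.1%), which also exceeded the share over all genes. Rod and cone genes did in 5, 3 and 2 (20.8%, 12.5% and 8.33%), above it in replicate 1 and below it in the others. Of the housekeeping genes, 4 had a site in replicates 1 and 2 but not in 3. All 20 housekeeping genes and all 18 YAP and TEAD genes had an open promoter. Of the photoreceptor genes 9 of 24 had one, and of the microglia genes 5 of 19. Open-promoter genes in general had a site by own regions in 19.4%, 18.8% and 12.7% of cases. Housekeeping genes exceeded that in each replicate, and YAP and TEAD genes in replicates 1 and 2 but not in 3. The lists were chosen with earlier results of these data known, so no test was made on them.

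**Figure D5:**
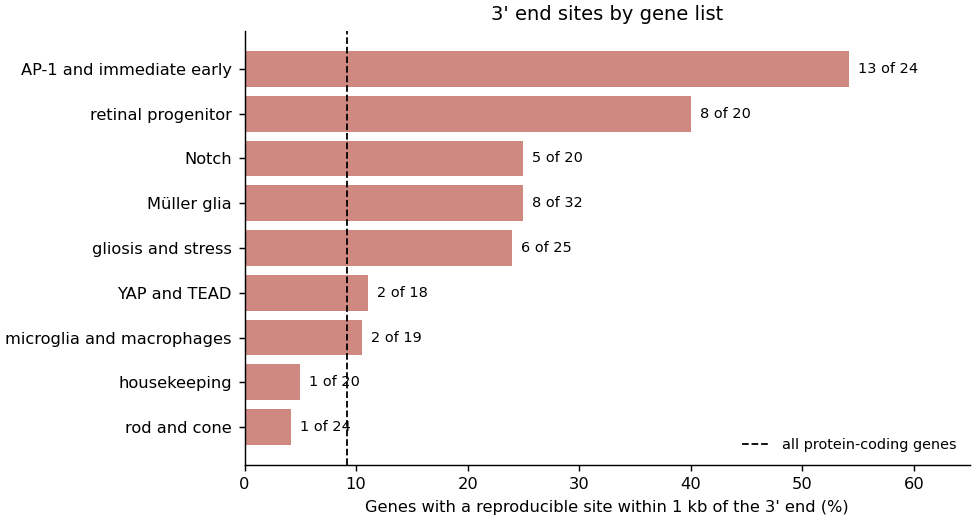
Percent of the genes of each of 9 lists with a reproducible site within 1 kb of the 3' end, with the counts beside the bars; the dashed line is the 9.17% over all 21755 protein-coding genes. Immediate early genes reach 54.2% and retinal progenitor genes 40%, whereas housekeeping and photoreceptor genes lie below the line; counted by each replicate's own regions, which are not drawn, housekeeping genes were above the share over all genes in 3 of 3 replicates.

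The share of genes with a 3' end site varied between chromosomes. It was 12.7% on chromosome 8 and 12.0% on chromosome 11, and 3.16% on the X chromosome, where 30 of 948 genes had one. Chromosome 18 had 12.9%, which includes the 22 genes that share 1 site.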

How the data were processed

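DNase-seq peaks and hotspots of 3 replicates on build mm10 were used. Per the deposited descriptions, the authors called each list on 1 library. The sources used here name no aligner, caller, version or read filter. Depth is unknown. The deposited peak score is a whole number from 1 to 150 of unstated meaning, and the deposited hotspot value is a -log10 q capped at 100. Genes came from GENCODE release M21, whose genome is mm10 by chromosome length, and sequence from the RefSeq assembly of that build. A start is the 5' end of any transcript of a protein-coding gene, and a 3' end is the end of the gene feature. Mitochondrial and Y regions were left out. Merging, densities, motif matches in each replicate's strongest peak, and two-sided exact sign-flip permutation tests over 3 per-replicate values were computed with Python 3.11.15, numpy 2.4.6 and scipy 1.17.1, and checked on simulated data. Named sites followed a fixed rule: the strongest, the genes with most sites, the 4 strongest per list, CTCF, AP-1 and convergent sites, and the weakest. Sites named beside them, such as those of Fos and Diaph1, were chosen after their values were seen. The sites and lists were chosen with earlier results of these data known. Alternatives changed overlap, window, ends, starts, peaks, replicates and comparison sites.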

Additional observations from a re-analysis of the deposited data

How the results depend on the processing

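The number of 3' end sites was 1049 with a 500 bp window, 3959 with 2000 bp, 3174 with the ends of every protein-coding transcript and 1171 with the strongest 50% of peaks, and 2164 to 3429 when 1 replicate was left out. Their share of reproducible sites in those 4 settings was 0.722%, 2.73%, 2.19% and 1.503%. It was 1.47% with an overlap of 75 bp, 1.16% over 2500 bp from starts, 1.37% with starts of every annotated gene avoided, 1.49% with equal numbers of peaks, 1.49% with starts of protein-coding transcripts alone, and 1.45% to 1.46% with a replicate left out. The share of genes with a site was 4.83%, 16.2%, 12.9% and 5.25% in the first 4 settings, and 9.38% to 14.4% with a replicate left out. The score difference turned to -2.33 ± 3.79 (SD, n = 3) with the strongest 50% of peaks, and the cause was not tested. It was 0.67 against sites 1 to 5 kb from a 3' end and positive in the other settings, up to 5.33. The difference in median hotspot -log10 q, 31.3, rested on replicate 3 alone: it was 0 to 47 with a replicate left out, and 0 with the strongest 50% of peaks, with starts of protein-coding transcripts alone, against sites outside protein-coding genes and against sites 1 to 5 kb away. The downstream share was 57.6% with transcript ends, 57.2% with starts of protein-coding transcripts alone, and 57.6% to 57.7% with a replicate left out. The log2 density ratio, 0.33, turned to -0.21 at 1 to 2.5 kb from a start and -0.12 at 20 to 50 kb, and the cause was not tested. The CTCF, AP-1 and GC differences kept their sign in the settings other than the GC strata and the comparisons by side of the 3' end. There CTCF differences lay between 0.83 and 7.11, AP-1 between -5.63 and -1.59, and GC between 0.58 and 3.89 percentage points. The strata by start distance entered these ranges for CTCF alone. In the stratum below 45% GC the AP-1 difference turned to 1.58. For the last 1 kb upstream against 5 to 1 kb upstream, CTCF turned to -0.77 and AP-1 to 1.11, and the causes were not tested. Whether these reversals exceed the sampling of sites was not tested either. The strata by start distance, GC and gene length, the sites 1 to 5 kb away and the starts of protein-coding transcripts alone were chosen after seeing the data. No paired analysis was possible because the series holds 1 group, so no groups could be paired by replicate number. Site classes were compared within each replicate.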
